A study of Mus musculus with 12 samples.

Results

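The proteasome subunit genes described here were the symbols of the Psma, Psmb, Psmc, Psmd and Psme series followed by a number, apart from *Psmb8*, *Psmb9* and *Psmb10*, that summed to 50 counts or more over all libraries. 40 of the 37775 genes in the table met this rule, namely 16 core subunits (*Psma1* to *Psma8*, *Psmb1* to *Psmb7* and *Psmb11*), 20 cap genes (*Psmc1* to *Psmc6* and *Psmd1* to *Psmd14*) and 4 activators (*Psme1* to *Psme4*). No symbol of the pattern fell under the count limit, and all 40 passed the filter on low counts. The counts came from bulk RNA-seq of 4 monocyte-macrophage (Mo-Mac) fractions from the ear skin of WT BALB/c mice, all male, on day 5 of IgE-mediated chronic allergic inflammation (IgE-CAI). In this model all mice received 300 μg of anti-TNP IgE intravenously and then 10 μg of TNP-conjugated ovalbumin in the skin of the ear, so that the controls of a comparison are themselves cells of the lesion. The fractions, with 3 libraries each and 5000 to 80000 sorted cells per library, were Ly6ChiPD-L2lo classical monocytes, Ly6ChiPD-L2hi early classical monocyte-derived macrophages (early CMDMs), Ly6CloPD-L2hi late CMDMs and Ly6CloPD-L2lo resident-like macrophages. The gate was on CD45+ CD11b+ SiglecF- Ly6G- cells. Nothing in the labels says whether the libraries of a fraction came from separate mice, so the p-values measure the spread between these libraries, which may be technical.

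The proteasome degrades ubiquitin-tagged proteins in the cytosol and nucleus. Its barrel-shaped core is built from outer rings of alpha subunits (Psma genes), which gate the entry, and inner rings of beta subunits (Psmb genes), of which *Psmb5*, *Psmb6* and *Psmb7* carry the peptidase sites. The cap binds the ubiquitin chain, removes it and feeds the unfolded protein into the core by means of a ring of ATPases (Psmc genes) and a set of scaffold and receptor subunits (Psmd genes). The core can instead be opened by activators without ATPase activity. *Psme1* and *Psme2* encode the alpha and beta chains of the interferon-inducible PA28 ring of antigen-presenting cells, *Psme3* encodes the nuclear PA28 gamma ring, and *Psme4* encodes the large single-chain activator PA200. In antigen-presenting cells *Psmb5*, *Psmb6* and *Psmb7* can be exchanged for the inducible *Psmb8*, *Psmb9* and *Psmb10*, which form the immunoproteasome.

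Total counts were between 12537178 and 19844113 per library, at which 3 counts correspond to 0.151 to 0.239 CPM (counts scaled to the same library size). This floor covers counting error only, since the reads carry no molecular identifiers. The fractions were not equally pure by their marker genes. Over 6 keratinocyte genes the summed CPM was 17068 to 27240 in early CMDMs, 1868 to 4044 in classical monocytes and 2294 to 3641 in the remaining fractions. Over 6 fibroblast genes it was 2983 to 5579 in classical monocytes and early CMDMs and 275 to 498 in late CMDMs and resident-like macrophages. Over 6 T cell genes it was 104 to 147 in classical monocytes and at most 25.7 elsewhere, and over 6 dendritic and Langerhans cell genes it was 931 to 1237 in resident-like macrophages and at most 268 elsewhere. Of these dendritic and Langerhans cell genes, 2 were higher and 1 lower in resident-like macrophages than in classical monocytes at an adjusted p under 0.05 in edgeR. Of all genes tested, 10.8% and 12.9% passed. Against late CMDMs 4 were higher and none lower, beside 12.7% and 15.5% of all genes tested. Over 6 neutrophil genes the summed CPM was 51.9 to 59.3 in resident-like macrophages and at most 43.6 elsewhere, with *Ly6g* at 0 counts in every library but those of classical monocytes, and no other marker gene was at 0 in all libraries of a fraction. Of the 5 neutrophil genes tested, 1 passed as higher and 2 as lower in resident-like macrophages against classical monocytes, with log2 fold changes from -2.49 to 4.02. Over 9 monocyte and macrophage genes the summed CPM was 2369 to 3375 in early CMDMs and at least 5722 elsewhere. *Lyz2* weighed most in this sum, with means of 1761 CPM in early CMDMs and 5802 CPM in classical monocytes. Between these fractions 5 of the 9 genes passed as lower in early CMDMs and 1, *Pdcd1lg2*, as higher. Of all genes tested, 20.6% and 24.2% passed. *Csf1r*, *Adgre1* and *Cd68* did not pass. Proteasome genes are active in nearly all cell types, and in bulk samples fewer cells of a type and less RNA per cell cannot be told apart. The part of these other cells in the results that follow was not tested.

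Proteasome transcripts made up a similar share of each library, and most levels differed little between the fractions. Summed over the 40 genes they took 0.297% to 0.369% of all counts, with a mean of 0.355% ± 0.0120 (SD, n = 3) in classical monocytes, 0.351% ± 0.00774 in early CMDMs, 0.321% ± 0.0207 in late CMDMs and 0.312% ± 0.0202 in the resident-like fraction. The ratio of the highest to the lowest fraction mean had a median of 1.20 over the 40 genes and was under 1.5 for 38 of them. Over all 22118 genes tested, many of which have low and therefore noisy counts, the median ratio was 1.67 and 37.9% were under 1.5. The exceptions among the proteasome genes were *Psma8*, at 3.43-fold, and *Psme1*, at 1.66-fold. Over the 6 comparisons between fractions, 44 of the 240 tests of a proteasome gene (18.3%) passed an adjusted p of 0.05 in edgeR, against 35.1% of the tests of all genes, and 21 of the 40 genes passed in none.

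**Figure D1:**
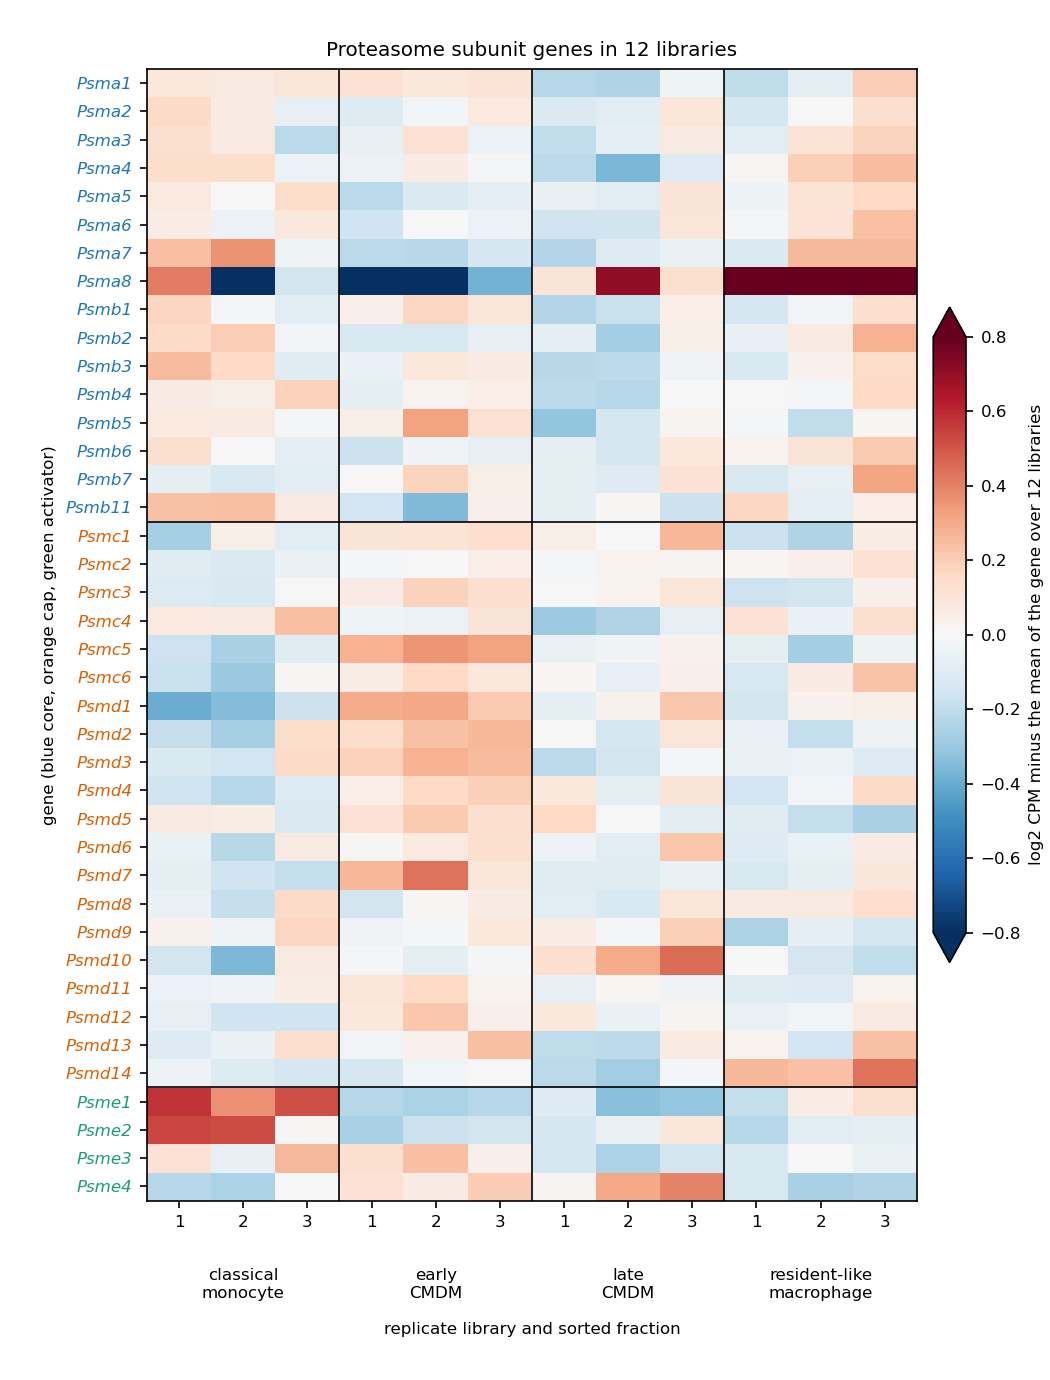
Each row is one of the 40 proteasome genes (blue core, orange cap, green activator) and each column one of the 12 libraries, with color for log2 CPM minus the mean of the gene over the libraries, saturated at 0.8. Most rows are pale, *Psme1* and *Psme2* are darkest in classical monocytes, except *Psme2* in replicate 3, and *Psma8*, a gene with 4 to 25 counts per library, has the widest range.

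Scaled to transcript length, core transcripts were more abundant than cap transcripts. The median level over all libraries was 90 CPM per kilobase for the 16 core subunits, 35.8 for the 20 cap genes and 70.5 for the 4 activators. The highest level was that of *Psmb4*, a structural beta subunit, at 197 CPM per kilobase, followed by *Psma7* at 165 and *Psmb6* at 159. Among the cap genes the highest was *Psmd8*, a lid subunit, at 86.7 CPM per kilobase. *Psmd5*, *Psmd9* and *Psmd10*, which carry Psmd names but encode chaperones of cap assembly that are absent from the finished particle, had levels of only 4.23, 10.6 and 10.9 CPM per kilobase. The tissue-restricted core subunits were near the bottom, with 0.499 CPM per kilobase for *Psma8*, the testis form of *Psma7*, and 1.54 for *Psmb11*, the thymus form of *Psmb5*.

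**Figure D2:**
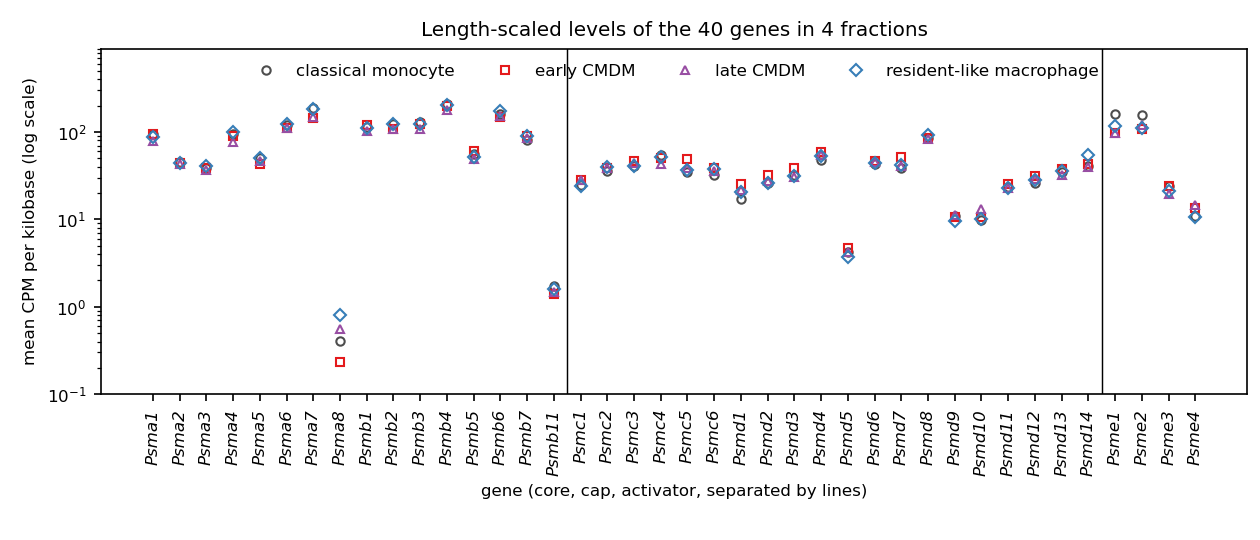
Mean level of each gene in CPM per kilobase of transcript, on a log scale, with one symbol for each of the 4 fractions. The symbols of a gene nearly coincide except for *Psma8*, and the 3 chaperones with Psmd names lie below the other cap genes.

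Early CMDMs were sorted apart from classical monocytes by a high level of PD-L2. The fractions also differed in keratinocyte, T cell, and monocyte and macrophage genes. The values compare sorted fractions and do not follow cells over time. The PA28 genes *Psme1* and *Psme2* were lower in early CMDMs, whereas 7 of the 20 cap genes were higher, as was *Psme4*, and of the 16 core subunits only *Psma7* passed the test. Under scaling by leukocyte genes, described below, *Psme1*, *Psme2* and *Psma7* were higher as well. *Psme1* (chr14:55578123-55581529, plus strand, GRCm38) was at 192, 166 and 184 CPM in the 3 libraries of classical monocytes and at 110, 108 and 110 CPM in early CMDMs, so that the groups did not overlap. *Psme1* fell by 0.72 ± 0.10 (SE) on the log2 scale (adjusted p = 2.68e-05 from the quasi-likelihood test of edgeR, adjusted by Benjamini-Hochberg, as for all adjusted p-values), but had a value of 1.02 under scaling by leukocyte genes. *Psme2* (chr14:55587441-55591113, minus strand), its neighbor on chromosome 14, was at 170, 168 and 118 CPM in classical monocytes and at 97.9, 104 and 106 CPM in early CMDMs, again without overlap although replicate 3 of the monocytes lay close to the early CMDMs. *Psme2* fell by 0.57 ± 0.12 (adjusted p = 0.00137) but had a value of 1.18 under that scaling. *Psme2b*, a near-identical copy with reads that the counting could split from *Psme2*, had 0.0714 to 0.0934 times the counts of *Psme2*, and adding them left all calls of *Psme2* in place. The 6 T cell genes, at 104 to 147 CPM in classical monocytes and 13.4 to 13.9 CPM in early CMDMs, moved with both PA28 genes. So did the 10 leukocyte genes used for scaling, all lower in early CMDMs with a median log2 fold change of -1.69. The 6 keratinocyte genes were higher there, with a median of 2.95. The part of these other genes was not tested.

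The 100 bases upstream of the RefSeq start of *Psme2* (GRCm38.p6, chr14:55591102-55591201, minus strand) are shown because *Psme2* was called in each comparison with classical monocytes.

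*Psme2*: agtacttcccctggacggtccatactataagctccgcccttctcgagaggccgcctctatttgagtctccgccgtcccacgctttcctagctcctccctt

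No interferon-stimulated response element (TTTC, any 2 bases, TTTC) and no gamma-activated site (TTCNNNGAA) was found on either strand in the 250 bases upstream of *Psme1* or *Psme2*, where 2.98% and 7.02% of the 32851 RefSeq promoters in the table hold these letters. The letters were searched in 36 promoters of 33 of the 40 genes, that is all but *Psma8*, *Psmb1*, *Psmb2*, *Psmb7*, *Psmc3*, *Psmd3* and *Psmd7*. The first occurred upstream of 3 of these genes (*Psmb3*, *Psmd4* and *Psmd9*) and the second upstream of none. A match or its lack describes only these letters in this window.

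Among the cap genes that rose in early CMDMs, *Psmd1*, a scaffold subunit of the cap base, was at 49.5, 51.2 and 57.9 CPM in classical monocytes and at 80, 80.8 and 75.3 CPM in early CMDMs. Its log2 fold change was 0.57 ± 0.10 (adjusted p = 0.000201). *Psmc5*, an ATPase, was at 46.6, 43.6 and 48.9 CPM and at 63.4, 66.7 and 65.3 CPM, a difference of 0.49 ± 0.09 on the log2 scale (adjusted p = 0.000325). *Psmd7*, the partner of the cap deubiquitinase, was at 64.2, 60.7 and 59.4 CPM and at 81.3, 91.6 and 72.4 CPM, a difference of 0.41 ± 0.10 (adjusted p = 0.00281). None of the 3 genes had overlapping libraries. The 6 keratinocyte genes rose with them, with a median log2 fold change of 2.95, and their part was not tested. The other cap genes called higher were *Psmd2*, *Psmd3*, *Psmd4*, a ubiquitin receptor, and *Psmd12*, with log2 fold changes of 0.24 to 0.31. The single core subunit called was *Psma7*, with 177, 192 and 146 CPM in classical monocytes and 129, 128 and 136 CPM in early CMDMs, and *Psma7* fell by 0.39 ± 0.12 (adjusted p = 0.0143) but had a value of 1.35 under scaling by leukocyte genes. *Psme4* (chr11:30771726-30880361, plus strand) was at 68.0, 66.9 and 80.0 CPM in classical monocytes and at 86.6, 83.6 and 91.8 CPM in early CMDMs, which gave a log2 fold change of 0.29 ± 0.11 (adjusted p = 0.0399).

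Of the 40 genes, 8 were called higher and 3 lower, against 24.2% and 20.6% of all genes tested, so that proteasome genes were called no more often than genes in general. The median log2 fold change was -0.092 for the core, 0.17 for the cap and -0.27 for the activators, beside -0.013 for all genes. 18 of the 20 cap genes had a positive value, and *Psmc4* (-0.12) and *Psmd9* (-0.04) did not. When the libraries were scaled by 10 pan-leukocyte genes, all of which were lower in early CMDMs, the median of all genes shifted to 1.72, 90.8% of all genes were called higher, and 39 of the 40 proteasome genes with them. Relative to that shift the medians were -0.059, 0.20 and -0.24, *Psme1* stood at -0.70 and *Psme2* at -0.54. The split of higher and lower calls was 12 and 2 under DEGES normalization and 7 and 8 under offsets for transcript length and GC content, a check chosen after the data were seen because core transcripts are shorter than cap transcripts (medians of 1174 and 1710 bases). Without replicate 2 of classical monocytes 5 genes were called, and without replicate 3 of early CMDMs 7. Without replicate 3 of classical monocytes, in which *Psma7* and *Psme2* were lowest, 12 were called.

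**Figure D3:**
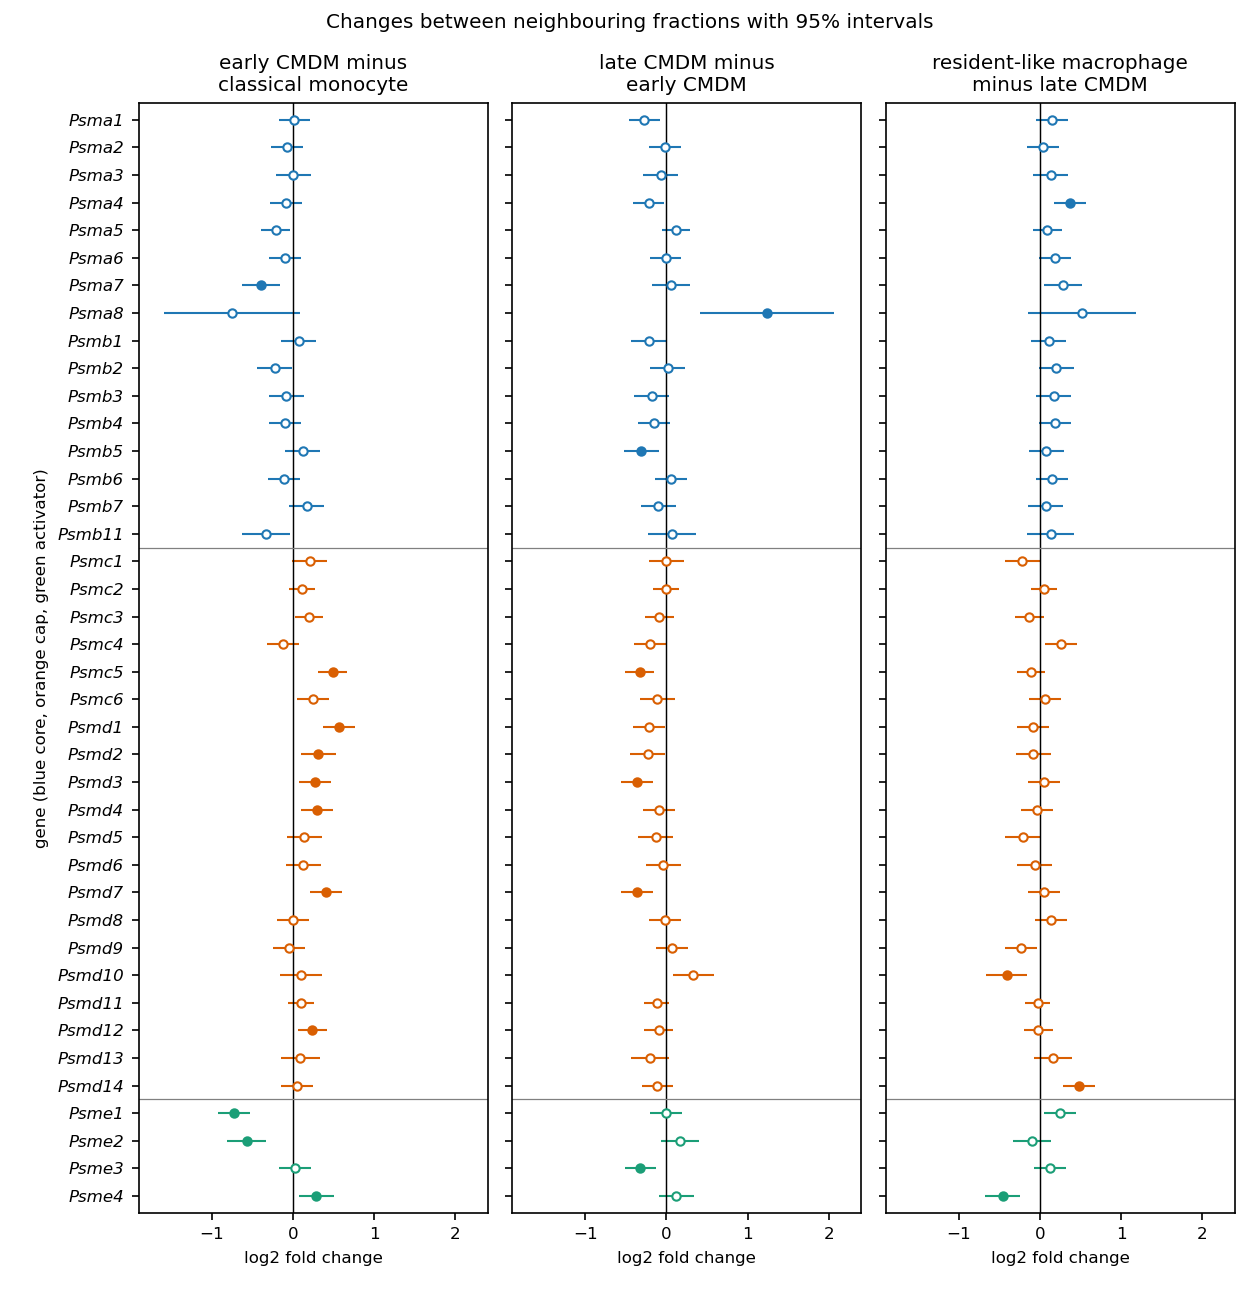
Log2 fold change of each of the 40 genes between neighboring fractions under TMM scaling, with bars for the approximate 95% interval and filled symbols for an adjusted p under 0.05. In the left panel *Psme1* and *Psme2* lie at -0.72 and -0.57 and 18 of 20 cap genes lie above 0, and under scaling by leukocyte genes *Psme1* and *Psme2* would also lie above 0.

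Late CMDMs were sorted apart from early CMDMs by a low level of Ly6C. In this comparison the cap genes *Psmc5*, *Psmd3* and *Psmd7* were lower, as were *Psmb5* and *Psme3*, and *Psma8* was higher. *Psmc5* went to 50.3, 51.2 and 53.4 CPM in late CMDMs and fell by 0.33 ± 0.09 (adjusted p = 0.00940). *Psmd7* went to 63.3, 63.4 and 65.2 CPM and fell by 0.36 ± 0.10 (adjusted p = 0.0114). *Psmd3*, a lid subunit, was at 80.2, 85.6 and 84.3 CPM in early CMDMs and at 60.8, 63.8 and 70.0 CPM in late CMDMs, and fell by 0.36 ± 0.10 (adjusted p = 0.00903). The 6 keratinocyte genes were lower in late CMDMs as well, with a median log2 fold change of -2.62, and their part was not tested. None of these cap genes was called between late CMDMs and classical monocytes, where *Psmd3* was at 65.1, 63.6 and 78.5 CPM. *Psme3* (chr11:101316213-101323537, plus strand) was at 63.9, 56.5 and 70.7 CPM in classical monocytes, at 64.5, 69.7 and 60.7 CPM in early CMDMs and at 53.8, 49.5 and 53.2 CPM in late CMDMs, and fell by 0.32 ± 0.10 from early to late CMDMs (adjusted p = 0.0215). *Psme1*, at 120, 102 and 104 CPM in late CMDMs, and *Psme2*, at 107, 113 and 125 CPM, did not pass the test, with approximate 95% intervals of -0.21 to 0.19 and -0.08 to 0.41.

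Of the 40 genes, 1 was called higher and 5 lower, against 14.4% and 17.5% of all genes tested. The median log2 fold change was -0.043 for the core, -0.11 for the cap and 0.054 for the activators, beside 0.022 for all genes. Under scaling by leukocyte genes 39 genes were called lower and none higher, the median of all genes was -0.93 and 72.0% of all genes were called lower. Without replicate 2 of early CMDMs 2 genes were called, and without replicate 2 of late CMDMs 3.

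Resident-like macrophages were sorted as low for both Ly6C and PD-L2, and the comparison with late CMDMs addresses what separates them from the Ly6Clo cells of the same skin that carry PD-L2. *Psmd14*, the metalloprotease that removes ubiquitin from the bound protein, was higher in resident-like macrophages, although not under scaling by leukocyte genes, and *Psme4* was lower. *Psmd14* (chr2:61711694-61800376, plus strand) was at 58.4, 55.9 and 67.5 CPM in late CMDMs and at 81.7, 79.8 and 91.8 CPM in resident-like macrophages, beside 65.8, 62.8 and 61.8 CPM in classical monocytes and 61.9, 66.7 and 68.1 CPM in early CMDMs. All 3 libraries of resident-like macrophages were thus above all 9 others, as they were for the summed CPM of the 6 dendritic and Langerhans cell genes. Of these 6 genes, 4 were called higher and none lower against late CMDMs, beside 12.7% and 15.5% of all genes tested. Against classical monocytes 2 were called higher and 1 lower, beside 10.8% and 12.9% of all genes tested. The part of these marker genes was not tested. The log2 fold change of *Psmd14* was 0.48 ± 0.10 against late CMDMs (adjusted p = 0.00141), but under scaling by leukocyte genes it was -0.10, or 0.48 above the median of all genes. *Psme4* was at 80.9, 98.6 and 105 CPM in late CMDMs and at 72.9, 66.7 and 67.5 CPM in resident-like macrophages, and fell by 0.46 ± 0.11 (adjusted p = 0.00450).

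*Psma4*, an alpha subunit, was at 91, 81.7 and 98 CPM in late CMDMs and at 106, 120 and 125 CPM in resident-like macrophages, which gave a log2 fold change of 0.37 ± 0.10 (adjusted p = 0.00997) that turned to -0.21 under scaling by leukocyte genes. *Psmd10*, the chaperone gankyrin, was at 16.9, 19.0 and 21.1 CPM in late CMDMs, at 15.5, 14.1 and 13.5 CPM in resident-like macrophages, at 14, 12.1 and 16.3 CPM in classical monocytes and at 15.3, 14.7 and 15.4 CPM in early CMDMs. It fell by 0.41 ± 0.13 from late CMDMs to resident-like macrophages (adjusted p = 0.0285).

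Of the 40 genes, 2 were called higher and 2 lower, against 12.7% and 15.5% of all genes tested. All 16 core subunits had a positive log2 fold change, with a median of 0.15 (-0.43 under scaling by leukocyte genes), but only *Psma4* passed the test. The medians of the cap and the activators were -0.034 and 0.0077, beside 0.0026 for all genes. The split of higher and lower calls was 1 and 6 with library size only, 5 and 2 with length and GC offsets, and 0 and 29 under scaling by leukocyte genes, where the median of all genes was -0.58. Without replicate 2 of late CMDMs 2 genes were called.

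The remaining comparisons share libraries with those above and give the distance of the later fractions from classical monocytes and from early CMDMs. In late CMDMs against classical monocytes all 4 activators were called. When single libraries were left out, the calls of *Psme1* and *Psme4* held each time. The call of *Psme2* was lost 4 times and that of *Psme3* 5 times. *Psme1* fell by 0.73 ± 0.10 (adjusted p = 3.87e-05), *Psme2* by 0.40 ± 0.12 (adjusted p = 0.0187) and *Psme3* by 0.29 ± 0.10 (adjusted p = 0.0317), whereas *Psme4* had a log2 fold change of 0.40 ± 0.11 (adjusted p = 0.00764). Under scaling by leukocyte genes *Psme1*, *Psme2* and *Psme3* instead had values of 0.05, 0.38 and 0.49, where the median of all genes was 0.77. For *Psme2*, replicate 3 of classical monocytes overlapped with late CMDMs. *Psmd1*, at 62.0, 66.7 and 75.7 CPM in late CMDMs, had a log2 fold change of 0.37 ± 0.10 (adjusted p = 0.00941) and *Psmd10* one of 0.43 ± 0.13 (adjusted p = 0.0174). *Psmc4*, an ATPase, went against the other called cap genes, with 75.5, 75.1 and 84.5 CPM in classical monocytes and 58.6, 60.5 and 68.5 CPM in late CMDMs. *Psmc4* fell by 0.32 ± 0.10 (adjusted p = 0.0153), *Psma7*, at 127, 139 and 144 CPM in late CMDMs, by 0.33 ± 0.12 (adjusted p = 0.0398) and *Psma4*, at 116, 116 and 102 CPM in classical monocytes, by 0.31 ± 0.10 (adjusted p = 0.0242), and each of these had a positive value of 0.45 to 0.47 under scaling by leukocyte genes.

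In this comparison 3 genes were called higher and 6 lower, against 18.1% and 17.5% of all genes tested, and the medians were -0.17 for the core, 0.087 for the cap and -0.34 for the activators, beside -0.013 for all genes. The split was 3 and 3 under DEGES normalization and 38 and 0 under scaling by leukocyte genes. Leaving out replicate 1 or 2 of classical monocytes left 5 calls, and leaving out replicate 1 or 2 of late CMDMs left 4. Over the removals of single libraries of either fraction, *Psma7* lost its call 5 times, *Psma4* 4 times and *Psmc4* 3 times. *Psmd10* lost it 2 times and *Psmd1* 1 time.

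Between resident-like macrophages and classical monocytes 4 genes were called. *Psme1*, at 113, 134 and 141 CPM, fell by 0.48 ± 0.10 (adjusted p = 0.00240) and *Psme2*, at 100, 110 and 111 CPM, by 0.50 ± 0.12 (adjusted p = 0.00663), and under scaling by leukocyte genes both kept a negative value (-0.28 and -0.31) without passing the test. *Psmd14* had a log2 fold change of 0.41 ± 0.10 (adjusted p = 0.00434). *Psma8* had 16, 7 and 12 counts in classical monocytes, 6, 4 and 9 in early CMDMs, 10, 20 and 12 in late CMDMs, and 25, 24 and 22 in the resident-like fraction. Its log2 fold change was 1.01 ± 0.35 against classical monocytes (adjusted p = 0.0468) and 1.24 ± 0.42 for late against early CMDMs (adjusted p = 0.0319). Of the 40 genes, 2 were called higher and 2 lower, against 10.8% and 12.9% of all genes tested, with medians of -0.022 for the core, 0.040 for the cap and -0.32 for the activators, beside 0.001 for all genes. The split was 1 and 2 under DEGES normalization, 0 and 5 with library size only, 4 and 2 with length and GC offsets, and 2 and 0 under scaling by leukocyte genes.

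In resident-like macrophages against early CMDMs, 6 cap genes were called lower and 1 higher. *Psmc5*, at 49.8, 43.3 and 50.8 CPM in resident-like macrophages, fell by 0.44 ± 0.09 (adjusted p = 0.000789). *Psmd5*, the chaperone, was at 20.1, 21.4 and 20.3 CPM in early CMDMs, at 17.3, 16.2 and 15.5 CPM in resident-like macrophages, at 19.5, 19.3 and 17.1 CPM in classical monocytes and at 20.7, 18.5 and 17.4 CPM in late CMDMs, and fell by 0.33 ± 0.11 (adjusted p = 0.0200). *Psmd1*, at 59.0, 66.7 and 67.3 CPM, *Psmd2*, *Psmd3*, at 68.0, 68.3 and 65.7 CPM, and *Psmd7*, at 61.9, 64.1 and 72.3 CPM in resident-like macrophages, fell by 0.29 to 0.31. The 6 keratinocyte genes were lower with these cap genes, with a median log2 fold change of -3.24, and their part was not tested. *Psmd14* went against them and had a log2 fold change of 0.36 ± 0.10 (adjusted p = 0.00518), and of -1.18 under scaling by leukocyte genes. Its distance above the median of all genes was 0.34 under TMM scaling, 0.33 under scaling by leukocyte genes and 0.15 with length and GC offsets. *Psma7*, at 138, 179 and 179 CPM in resident-like macrophages, had a log2 fold change of 0.34 ± 0.12 (adjusted p = 0.0298), or -1.21 under scaling by leukocyte genes, and *Psma8* one of 1.76 ± 0.39 (adjusted p = 0.00147). *Psme4* fell by 0.34 ± 0.11 (adjusted p = 0.0163).

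Of the 40 genes, 3 were called higher and 7 lower, against 21.4% and 25.1% of all genes tested. The median was 0.11 for the core, -0.14 for the cap and -0.067 for the activators, beside 0.025 for all genes. This split depended on the scaling, with 2 and 15 under DEGES normalization, 1 and 17 with library size only, 0 and 39 under scaling by leukocyte genes and 9 and 1 with length and GC offsets. Without replicate 2 of early CMDMs 5 genes were called, and without replicate 2 of resident-like macrophages 3.

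The peptidase subunits of the constitutive core had highest fraction means 1.24-fold (*Psmb5*), 1.15-fold (*Psmb6*) and 1.13-fold (*Psmb7*) above the lowest. *Psmb5* (chr14:54614119-54618022, minus strand) was at 51.0, 50.9 and 48.1 CPM in classical monocytes, at 50, 60.5 and 52.5 CPM in early CMDMs, at 38.8, 43.8 and 49.0 CPM in late CMDMs and at 48.1, 42.1 and 48.8 CPM in resident-like macrophages. It fell by 0.31 ± 0.11 from early to late CMDMs (adjusted p = 0.0386), its single call. *Psmb6* (chr11:70525367-70527858, plus strand) was at 138, 126 and 120 CPM, at 112, 124 and 121 CPM, at 120, 115 and 134 CPM and at 129, 136 and 146 CPM in the same order of fractions. *Psmb7* (chr2:38588036-38644087, minus strand) was at 94.4, 91.5 and 93.7 CPM, at 100, 113 and 103 CPM, at 94.3, 93 and 108 CPM and at 91.6, 95.2 and 124 CPM. Neither *Psmb6* nor *Psmb7* passed in any comparison, and the approximate 95% intervals for early CMDMs against classical monocytes, -0.29 to 0.08 and -0.05 to 0.39, leave room for small changes in either gene. In the order of CPM per kilobase *Psmb6* stood above *Psmb7* and *Psmb7* above *Psmb5* in every fraction.

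The 100 bases upstream of the RefSeq starts of *Psmb5* (GRCm38.p6, chr14:54617996-54618095, minus strand) and *Psmb6* (chr11:70525257-70525356, plus strand) are shown because both hold the letters TGACNNNGC of the antioxidant response element, the kind of site that the proteasome transcription factors *Nfe2l1* and *Nfe2l2* are known to bind. Capitals mark the match.

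*Psmb5*: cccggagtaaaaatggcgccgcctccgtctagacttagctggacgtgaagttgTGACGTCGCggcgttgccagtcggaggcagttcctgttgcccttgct

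*Psmb6*: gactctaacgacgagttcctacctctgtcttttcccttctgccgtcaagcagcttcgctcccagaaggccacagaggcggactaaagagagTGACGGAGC

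On either strand of the 250 bases upstream, this motif occurred in 10.2% of the 32851 promoters and upstream of 5 of the 33 proteasome genes with an entry, the others being *Psmc6*, *Psmd9* and *Psmd12*. The match began 47 bases before the start of *Psmb5* and 9 bases before that of *Psmb6*.

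*Nfe2l1* and *Nfe2l2* themselves had larger log2 fold changes between early CMDMs and classical monocytes than any of the 40 genes passing the test there. *Nfe2l1*, the factor that raises proteasome genes when the proteasome is short, averaged 56.9 CPM in classical monocytes, 122 in early CMDMs, 79.6 in late CMDMs and 66.3 in the resident-like fraction. Its log2 fold change was 1.10 ± 0.11 in early CMDMs against classical monocytes (adjusted p = 7.28e-07), and it fell by 0.61 from early to late CMDMs. *Nfe2l2*, the factor of the oxidative stress response, averaged 311, 164, 254 and 456 CPM in the same order and fell by 0.92 ± 0.12 in early CMDMs (adjusted p = 6.35e-06) but had a value of 0.79 under scaling by leukocyte genes. Keratinocyte genes were several-fold higher in early CMDMs than in any other fraction, and their part in these values was not tested. *Ddi2*, which cleaves *Nfe2l1*, and *Ngly1*, which removes its glycans, had log2 fold changes of 0.29, which passed the test, and 0.0013.

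*Psmb8*, *Psmb9* and *Psmb10*, the exchange partners left out by the rule, were each called in 5 of the 6 comparisons. In early CMDMs against classical monocytes they fell by 1.14 ± 0.09, 0.96 ± 0.10 and 1.18 ± 0.11 (adjusted p = 4.86e-08, 5.50e-07 and 3.90e-07), from 163 to 74.1, from 61.4 to 31.6 and from 103 to 45.4 CPM, but had values of 0.59, 0.78 and 0.54 under scaling by leukocyte genes. From early to late CMDMs they had log2 fold changes of 0.44, 0.48 and 0.62, each past the threshold, and of -0.50, -0.47 and -0.32 under that scaling. A ratio of counts within a library does not depend on the scaling between libraries. *Psmb8* had 3.37, 3.05 and 3.40 counts for each count of *Psmb5* in classical monocytes, 1.49, 1.11 and 1.53 in early CMDMs, 2.62, 2.27 and 2.06 in late CMDMs and 2.95, 3.45 and 3.06 in resident-like macrophages. The ratio of *Psmb9* to *Psmb6* had means of 0.479 ± 0.0143, 0.266 ± 0.0198, 0.360 ± 0.0445 and 0.408 ± 0.0142 (SD, n = 3), and that of *Psmb10* to *Psmb7* of 1.10 ± 0.0805, 0.434 ± 0.0683, 0.712 ± 0.0760 and 0.770 ± 0.121, in the same order. All 3 ratios were thus lowest in early CMDMs without overlap with another fraction. Early CMDMs also had the highest summed CPM of the 6 keratinocyte genes (17068 to 27240, against at most 4044 elsewhere) and the lowest of the 9 monocyte and macrophage genes (2369 to 3375, against at least 5722 elsewhere). The latter sum was mostly *Lyz2* in early CMDMs and classical monocytes. The part of these markers in the ratios was not tested.

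Within the 40 genes the make-up by class also differed between fractions. Activators made up 14.1%, 13.6% and 13.3% of the proteasome counts in classical monocytes, 11%, 10.5% and 10.7% in early CMDMs, 11.8%, 11.9% and 11.3% in late CMDMs and 10.8%, 11.1% and 10.3% in resident-like macrophages. All 3 libraries of classical monocytes were above all 9 others. The counts of *Psme1* and *Psme2* per count of the core were 0.189 ± 0.00867 in classical monocytes, 0.127 ± 0.00315 in early CMDMs, 0.144 ± 0.00924 in late CMDMs and 0.135 ± 0.00472 in the resident-like fraction. The count ratio of core to cap was 1.57, 1.57 and 1.31 in classical monocytes, 1.22, 1.23 and 1.23 in early CMDMs, 1.23 to 1.30 in late CMDMs and 1.31, 1.42 and 1.43 in resident-like macrophages. Early CMDMs lay below classical monocytes in every library, by a wide gap for replicates 1 and 2 and a narrow one for replicate 3. With counts per kilobase, which bring the 2 classes to one scale, the mean ratio was 2.28 in classical monocytes, 1.87 in early CMDMs, 1.93 in late CMDMs and 2.13 in the resident-like fraction, the same order.

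**Figure D4:**
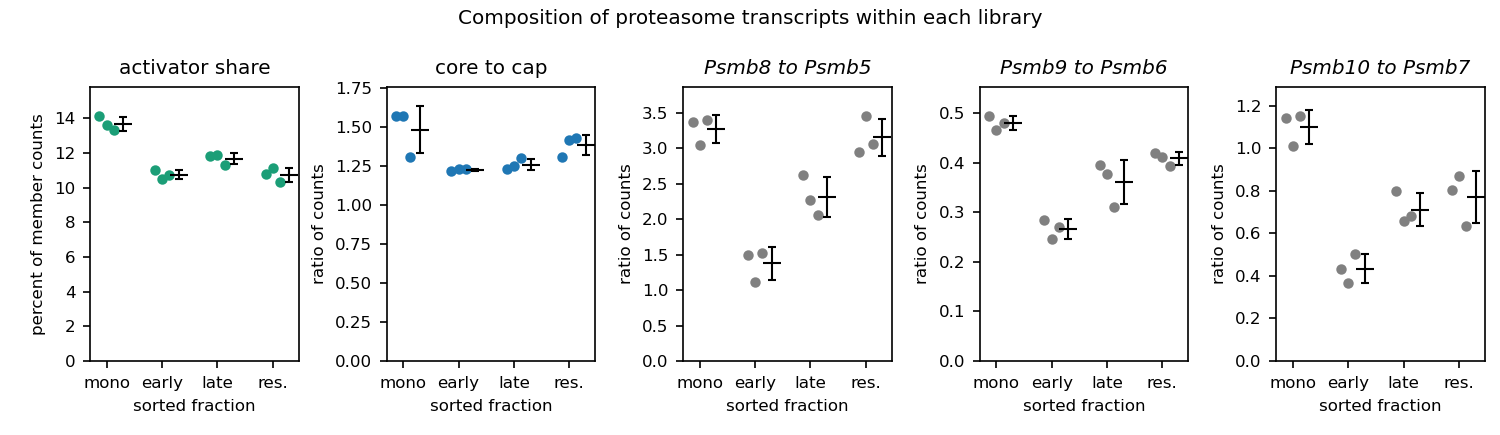
Share of the 4 activators among the counts of the 40 genes, ratio of core to cap counts and ratio of each exchange partner to its constitutive subunit in the 12 libraries, with points for libraries and bars for mean ± SD. The activator share is 13.3% to 14.1% in classical monocytes and at most 11.9% elsewhere, and the ratios of exchange partners are lowest in early CMDMs.

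*Psme4* and *Psme1*, activators of the same core, went apart within libraries. *Psme4* had 0.398 ± 0.0404 counts per count of *Psme1* in classical monocytes, 0.798 ± 0.0308 in early CMDMs, 0.881 ± 0.180 in late CMDMs and 0.540 ± 0.0907 in the resident-like fraction (SD, n = 3). The ratio was higher in each library of early and late CMDMs than in any library of classical monocytes or resident-like macrophages.

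**Figure D5:**
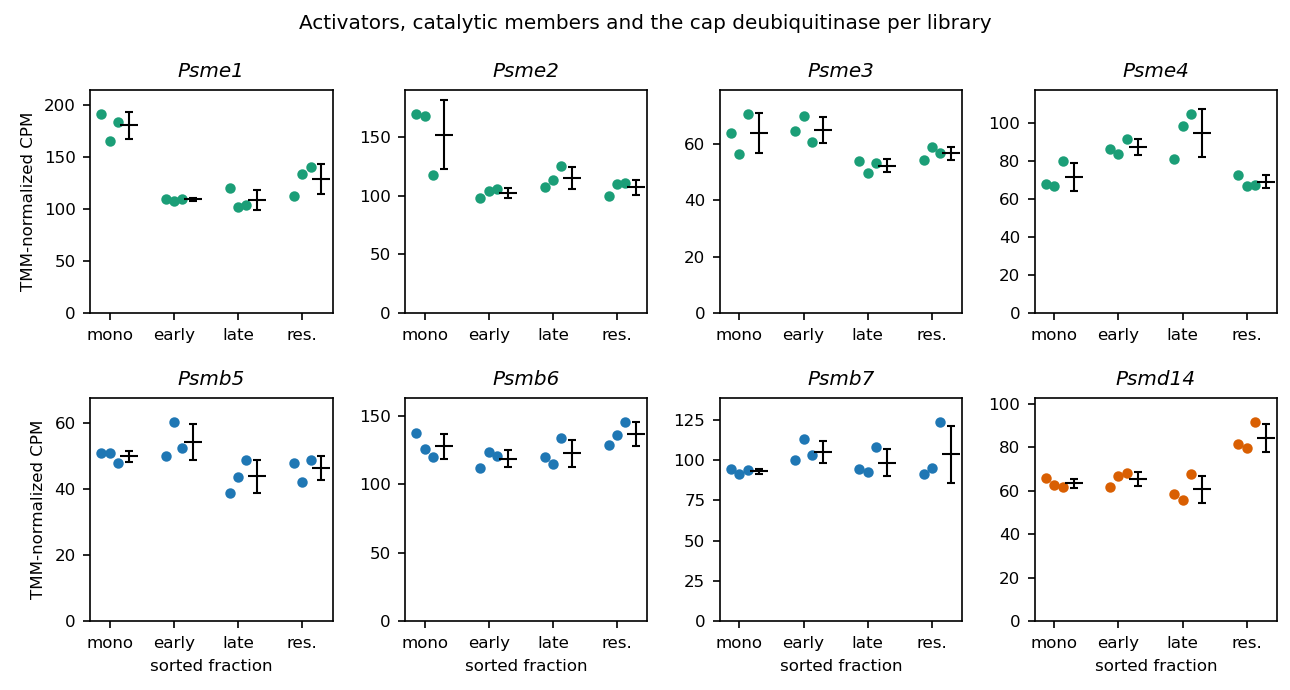
CPM after TMM scaling of the 4 activators, the 3 peptidase subunits and the cap deubiquitinase *Psmd14* in the 12 libraries, with points for libraries and bars for mean ± SD. *Psme1* is at 166 to 192 CPM in classical monocytes and at most 141 elsewhere, and no comparison called *Psmb6* or *Psmb7*. *Psmd14* is at 79.8 CPM or more in resident-like macrophages and at most 68.1 elsewhere. Scaling by leukocyte genes turns the order of both genes against early CMDMs. For *Psme1* in late CMDMs against classical monocytes it gives a log2 fold change of 0.05. For *Psmd14* in resident-like macrophages against late CMDMs it gives -0.10, and neither value passes the test.

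Genes for proteins that assemble, bind or feed the proteasome are given by list, with calls under TMM scaling. For early CMDMs against classical monocytes, 24.2% of all genes tested passed as higher and 20.6% as lower. The shares were 14.4% and 17.5% in late against early CMDMs, 12.7% and 15.5% in resident-like macrophages against late CMDMs, 21.4% and 25.1% against early CMDMs, and against classical monocytes 18.1% and 17.5% in late CMDMs and 10.8% and 12.9% in resident-like macrophages. Scaling by leukocyte genes called 90.8% of all genes higher in early and 63.0% in late CMDMs against classical monocytes, and called lower 72.0% in late against early CMDMs, 48.6% in resident-like macrophages against late CMDMs and 88.5% against early CMDMs. The splits of the lists moved with it in these comparisons, and had the same counts in resident-like macrophages against classical monocytes. Of 8 assembly chaperones, which include *Psmd5*, *Psmd9* and *Psmd10*, 2 passed as higher and 1 as lower in early CMDMs against classical monocytes, 0 and 1 in late against early CMDMs, 0 and 3 in resident-like macrophages against late CMDMs, and 1 and 4 against early CMDMs. *Psmg1*, which helps to assemble the alpha ring, had a log2 fold change of 0.89 ± 0.13 in early CMDMs (adjusted p = 3.06e-05) and averaged 10.4, 19.2, 13.6 and 10.4 CPM in the order of fractions used above. *Pomp*, which helps to assemble the beta ring, fell by 0.31 in early CMDMs but had a value of 1.45 under scaling by leukocyte genes. Against classical monocytes the chaperones had 3 higher and 0 lower calls in late CMDMs, and no call in resident-like macrophages. Under scaling by leukocyte genes all 8 chaperones were called higher in early and in late CMDMs against classical monocytes, all 8 lower in both Ly6Clo fractions against early CMDMs, and 7 lower in resident-like macrophages against late CMDMs.

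Of 8 other proteasome-bound proteins, 2 passed as higher and none as lower in early CMDMs, 0 and 1 in late against early CMDMs, 1 and 1 in resident-like macrophages against late CMDMs and 1 and 2 against early CMDMs. Against classical monocytes 1 was called higher and none lower in late CMDMs, and 1 and none in the resident-like fraction. The last was *Usp14*, a deubiquitinase of the cap, with means of 36.3, 41.4, 41.1 and 50.9 CPM and a log2 fold change of 0.49 ± 0.10 (adjusted p = 0.00222). Like *Psmd14*, *Usp14* had its highest mean in resident-like macrophages under TMM scaling, but under scaling by leukocyte genes its log2 fold change in these cells was -1.27 against early CMDMs (adjusted p = 2.22e-07 from edgeR) and -0.28 against late CMDMs. Under that scaling all 8 genes were called higher in early and in late CMDMs against classical monocytes, all 8 lower in both Ly6Clo fractions against early CMDMs, and 4 lower in resident-like macrophages against late CMDMs.

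Of 14 genes for ubiquitin, its activating enzymes and shuttle factors, 6 passed as higher and 2 as lower in early CMDMs against classical monocytes, 3 and 4 in late against early CMDMs, 1 and 1 in resident-like macrophages against late CMDMs and 2 and 4 against early CMDMs. Against classical monocytes 3 passed as higher and 2 as lower in late CMDMs, and 3 and none in the resident-like fraction. Under scaling by leukocyte genes all 14 were called higher in early CMDMs and 12 in late CMDMs against classical monocytes, 13 lower in late against early CMDMs, and 11 and 14 lower in resident-like macrophages against late and early CMDMs. The polyubiquitin gene *Ubb* averaged 1948, 1592, 2136 and 2860 CPM in the 4 fractions, with a log2 fold change of 0.85 ± 0.10 in resident-like macrophages against early CMDMs (adjusted p = 2.87e-06) that turned to -0.70 under scaling by leukocyte genes. Of 4 genes for transcription factors of the proteasome and their processing (*Nfe2l1*, *Nfe2l2*, *Ddi2* and *Ngly1*), 2 passed as higher and 1 as lower in early CMDMs, 1 and 2 in late against early CMDMs, 1 and none in resident-like macrophages against late CMDMs, 1 and 2 against early CMDMs, and 1 and none in both late CMDMs and resident-like macrophages against classical monocytes. Under scaling by leukocyte genes all 4 were called higher in early and in late CMDMs against classical monocytes, and 3 lower in late against early CMDMs and in resident-like macrophages against either kind of CMDM.

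The members that passed the test in no comparison, apart from *Psmb6* and *Psmb7* above, are named last. The alpha subunits *Psma1*, *Psma2*, *Psma3*, *Psma5* and *Psma6*, the beta subunits *Psmb1*, *Psmb2*, *Psmb3*, *Psmb4* and *Psmb11*, the ATPases *Psmc1*, *Psmc2*, *Psmc3* and *Psmc6*, the lid subunits *Psmd6*, *Psmd8*, *Psmd11* and *Psmd13* and the chaperone *Psmd9* belonged to this group. The smallest range was that of *Psma2*, with a highest fraction mean 1.06-fold above the lowest. Counts of *Psma5* exclude those of *Psma5-ps*, a processed copy with 0.403 to 0.481 times as many counts, between which the counting could split reads, and adding them changed no call.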

How the data were processed

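Bulk RNA-seq counts of 12 libraries were analysed. To make the deposited counts, the authors trimmed reads with cutadapt 4.1, mapped them with Bowtie2 2.4.5 to the reference RNA of GRCm38 and counted reads per gene, without normalization. Reads of near-identical copies can be split by this counting.

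Groups were taken from the sample titles. Robust quasi-likelihood models of edgeR 4.0.16 (R 4.3.3), with 1 coefficient per fraction, were fitted to all 12 libraries after TMM normalization of the genes that filterByExpr kept. In each of 6 comparisons, p-values were adjusted over the 22118 genes tested with the Benjamini-Hochberg method and called under 0.05. CPM are TMM-normalized, SEs were obtained from the F statistic, and fold changes are log2. Counts of replicate pairs gave chi-square values 4.63 to 24.7 times their degrees of freedom, beyond sampling noise. Positions are from GENCODE M21 (GRCm38). CPM per kilobase use the length of the APPRIS principal transcript. Upstream sequences are from RefSeq (GRCm38.p6). The fit was tested on simulated data.

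The members, lists, comparisons and alternatives were chosen with earlier results of these data known. Every member could be named, with values per library for the peptidase subunits, the activators and, in each comparison, up to 3 called members of each class with the largest change. List genes were named where called in most comparisons or paired with a member, except for some that are not reported here. The alternatives were RLE size factors, DESeq2 1.42.0, DEGES, library size only, no filter, 10 counts in every library, fits restricted to the compared fractions, a replicate block, a threshold of 0.01, scaling by 10 leukocyte genes, removal of each library in turn and removal of genes with over 1% of counts. Offsets for length and GC content and the merging of *Psme2b* and *Psma5-ps* with their parent genes were added after seeing the data. The study's methods name TCC, which was not used here. DEGES follows its strategy.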

Additional observations from a re-analysis of the deposited data

How the results depend on the processing

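Of the 44 calls of single genes, RLE size factors, leaving out genes over 1% of counts and merging the near-identical copies kept all 44, DESeq2 and the replicate block 43, library size only and no filter 39, DEGES 38, fits restricted to the compared fractions 34, length and GC offsets 31 and scaling by leukocyte genes 27, and the filter of 10 counts in every library kept all 41 of the calls it could test. When each library was left out, 16 of the 44 calls held every time. 13 held under every alternative in which they could be tested, other than scaling by leukocyte genes. One of the 13, *Psma8* in resident-like macrophages against early CMDMs, could not be tested with 10 counts in every library. Of the 13, 6 also held under scaling by leukocyte genes, namely *Psmc5*, *Psmd1* and *Psmd7* in early CMDMs and *Psme4* in late CMDMs against classical monocytes, *Psme4* in resident-like macrophages against late CMDMs, and *Psmc5* in resident-like macrophages against early CMDMs. All 6 lie in the direction in which that scaling moves all genes. The medians of all genes under it were 1.72 in early and 0.77 in late CMDMs against classical monocytes. They were -0.58 and -1.51 in resident-like macrophages against late and early CMDMs. A call in that direction could hardly be lost, so holding there does not mark these 6 as firmer.

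Some alternatives moved the number of genes called by over 1.5 times in at least 1 comparison, and their counts follow. The comparisons were, in order, early CMDMs against classical monocytes (11), late against early CMDMs (6), resident-like macrophages against late CMDMs (4), late CMDMs (9) and resident-like macrophages (4) against classical monocytes, and resident-like macrophages against early CMDMs (10). Scaling by leukocyte genes gave 39, 39, 29, 38, 2 and 39, and fits restricted to the compared fractions gave 7 in the first and 5 in the fourth. A threshold of 0.01 gave 5, 2, 3, 3, 3 and 3. Library size only gave 7 in the third and 18 in the last, DEGES 17 in the last, and length and GC offsets 7 in the third. Leaving out 1 library gave 5 to 12, 2 to 7, 2 to 6, 4 to 8, 3 to 4 and 3 to 10. The causes were not tested, apart from the stricter threshold, which calls fewer genes by construction.

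Scaling by leukocyte genes turned the sign of 13 calls. In early CMDMs against classical monocytes these were *Psma7* (1.35), *Psme1* (1.02) and *Psme2* (1.18), in resident-like macrophages against late CMDMs *Psma4* (-0.21) and *Psmd14* (-0.10), in late CMDMs against classical monocytes *Psma4* (0.47), *Psma7* (0.45), *Psmc4* (0.46), *Psme1* (0.05), *Psme2* (0.38) and *Psme3* (0.49), and in resident-like macrophages against early CMDMs *Psma7* (-1.21) and *Psmd14* (-1.18). Of these values, *Psma4* and *Psmd14* in resident-like macrophages against late CMDMs did not pass the test under that scaling. Neither did *Psme1* and *Psme2* in late CMDMs against classical monocytes. All 13 follow the shift of all genes under that scaling.

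The labels do not say what a replicate number stands for, and the correlations between same-numbered libraries were low and of mixed sign. Same-numbered libraries had correlations of -0.099 to 0.248 of their deviations from the fraction means, from 0.061 to 0.193 for replicate 2, and 10 of the 12 libraries correlated best with their own number. The numbers were not used as a pairing. With the replicate block 12, 7, 5, 11, 4 and 11 genes were called.

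In the order classical monocytes, early and late CMDMs and resident-like macrophages, the activator share went from 13.7%, 10.7%, 11.7% and 10.7% to 14.7%, 11.5%, 12.5% and 11.6% without *Psmb4*, the most abundant member, and with counts per kilobase to 10.1% in early and 11.1% in late CMDMs. The core to cap ratio went from 1.48, 1.23, 1.26 and 1.39 to 1.27, 1.05, 1.09 and 1.20 without *Psmb4* and to 2.28, 1.87, 1.93 and 2.13 per kilobase. Classical monocytes had the highest value of both measures each time.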
